A study of Mus musculus with 27 samples.

Results

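RNA levels of 10 genes of the bone morphogenetic protein (BMP) pathway were followed across limb buds grown from mouse embryonic stem cells (ES-LBs) and 7 kinds of mouse embryonic tissue. The genes were the ligands Bmp2, Bmp4, Bmp5 and Bmp7, the secreted antagonists Grem1 and Nog, the target genes Msx1, Msx2 and Id1, and the inhibitory Smad gene Smad6. They were taken by name as 10 of the 23279 genes in the deposited table, and all 10 were found in it.

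BMPs are secreted ligands of the TGF-beta family that bind paired type I and type II serine/threonine kinase receptors, which phosphorylate Smad1, Smad5 and Smad9. These Smads enter the nucleus with Smad4 and turn on targets such as the Id genes, the Msx homeobox genes and Smad6, whose product feeds back on the receptors. Antagonists such as Gremlin1 and Noggin bind the ligands outside the cell. In the limb bud, BMPs act in patterning of the ectoderm, in regression of the apical ectodermal ridge and in cell death between digits, and Gremlin1 in the mesenchyme keeps the ridge active.

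The labels gave 9 groups of 3 libraries each. ES-FLBs and ES-HLBs, the forelimb-type and hindlimb-type ES-LBs, were Hand2::mEGFP-positive mesenchyme sorted on day 9 of culture from pooled aggregates of an EB5-derived ES cell line with the reporter knocked into 1 Hand2 allele. Both received BMP4 with Matrigel on days 1 to 5. The labels give the BMP receptor inhibitor LDN193189 and Wnt3 on days 7 to 9. The methods of the study instead give LDN193189 on days 6.5 to 7, and for Wnt3 a window that starts on day 7 but is shorter. By the methods, both ES-LB types also had hydrocortisone from day 6.5. ES-FLBs had retinoic acid (RA) on days 5 to 6, and ES-HLBs an RA antagonist on days 6 to 6.5. Early forelimb buds (FLBs) and hindlimb buds (HLBs), labelled E10.0, FLBs and HLBs at E10.5, and E10.5 branchial arch (BA), tail bud (TB) and heart (labelled Ca) were whole tissues cut from Slc:ICR embryos, so they held ectoderm, vessels and blood. These tissues were not sorted for Hand2, which the study uses as a posterior marker in limb mesenchyme. Sorting for Hand2 and culture cannot be told apart where ES-LBs are compared with them. The study places the early HLBs at a later stage than the early FLBs, and for these 2 groups limb type and stage cannot be told apart. In such bulk samples, fewer cells of a type and less RNA per cell cannot be told apart either. The labels do not say that libraries of a group came from separate cultures or litters, so p-values measure the spread between these libraries, which may be technical.

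Replicate 2 of the E10.5 HLBs was left out, since genes on chromosomes 5, 6, 7, 8, 9, X and part of 4, among them Msx1, Bmp5 and Smad6, were listed at 0 in it, and that group had 2 libraries. Estimated reads on genes were 19642245 to 22142300 in the early limb buds and 5543755 to 8541930 in the other libraries, so 3 reads were worth 0.148 to 0.543 CPM, counts scaled to library size. Levels were summed over 12 genes of limb mesenchyme, such as Prrx1, Twist1 and Pdgfra. The sums were 1979 to 2093 CPM in ES-LBs and 1496 to 2245 CPM in limb buds. By the tests described below, 5 of these genes were higher and 6 lower in ES-FLBs against early FLBs, and 3 and 7 against E10.5 FLBs. In ES-HLBs 5 were higher and 7 lower against early HLBs, and 4 and 8 against E10.5 HLBs. Within that list the forelimb gene Tbx5 was at 67.0 to 73.0 CPM in ES-FLBs and 2.28 to 4.09 CPM in ES-HLBs, and the hindlimb gene Pitx1 at 6.10 to 9.00 and 65.5 to 74.0 CPM. Lmx1b, the dorsal limb gene, was at 0.427 to 1.95 CPM in ES-LBs. Sums over 12 endothelial genes were 49.9 to 81.9 CPM in ES-LBs and 394 to 548 CPM in limb buds, and those over 18 genes of ectoderm and apical ridge 147 to 288 and 400 to 714 CPM. The ridge gene Fgf8 was at 0 to 1.42 CPM in ES-LBs and 24.9 to 34.3 CPM in early FLBs. The dorsal ectoderm gene Wnt7a was at 0 to 0.383 and 31.6 to 41.7 CPM. Not all ectoderm and ridge genes were lower in ES-LBs. Against early buds, 1 of 16 tested was higher and 13 lower in ES-FLBs, and 5 of 18 higher and 11 lower in ES-HLBs. Against E10.5 buds, 0 of 16 were higher and 12 lower in ES-FLBs, and 3 of 18 higher and 9 lower in ES-HLBs. All levels below are scaled CPM per library, and levels of different genes were compared only after division by exon length (CPM per kb of exon, from GENCODE vM21).

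Bmp4 was the most abundant of the ligand RNAs in ES-LBs and limb buds per kb of exon. Its gene lies at chr14:46383525-46390669 on the minus strand (GRCm38). ES-FLB libraries held 197, 194 and 175 CPM and ES-HLB libraries 91.6, 89.9 and 94.0 CPM of it. Early limb buds were below both, with 83.5, 78.5 and 79.1 CPM in FLBs and 81.8, 79.9 and 77.8 CPM in HLBs. At E10.5 the FLBs had 62.3, 71.7 and 73.2 CPM and the HLBs 58.4 and 72.1 CPM. No ES-LB library overlapped any limb bud library for this gene. Heart, at 57.8, 48.5 and 59.8 CPM, overlapped the E10.5 HLBs, and BA (24.6 to 29.0 CPM) and TB (23.8 to 25.0 CPM) overlapped each other at the low end. The whole span of the Bmp4 gene, introns included, shares 89 bases with Gm15217 and 1764 bases with Gm15222 on the opposite strand. Overlap of exons was not computed, and whether the counting used strand is not given in the sources used here.

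Bmp7, a ligand that pairs with BMP2 or BMP4 in heterodimers, had another order. Its gene lies at chr2:172868012-172940321 on the minus strand. The lowest libraries of the whole set were those of ES-FLBs, at 22.5, 22.3 and 23.6 CPM, followed by BA at 35.7, 29.5 and 30.8 CPM. ES-HLBs had 39.2, 39.2 and 35.7 CPM, within the range of TB at 37.5 to 40.4 CPM or just under it. Early FLBs were at 76.8, 87.9 and 66.0 CPM, overlapping early HLBs at 76.3, 72.8 and 78.3 CPM. The E10.5 buds were a step lower, at 59.4, 61.5 and 56.3 CPM in FLBs and 58.1 and 54.1 CPM in HLBs. Heart, at 164, 136 and 149 CPM, stood apart from all other groups.

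The ratio of the 2 ligands set the groups in a clear order. Per kb of exon, Bmp4 was 14.7 ± 1.35 times Bmp7 in ES-FLBs (SD, n = 3) and 4.31 ± 0.330 times in ES-HLBs. In the 4 limb bud groups the mean ratio was 1.88 to 2.08, and no limb bud library went above 2.37, while the lowest ES-LB library was at 4.08. The ratio was 1.48 ± 0.229 in BA, 1.11 ± 0.068 in TB and 0.658 ± 0.048 in heart, the only group with more Bmp7 than Bmp4. Bmp4 made up 86.5% ± 1.32 of the summed RNA of the 4 ligands in ES-FLBs, 71.3% ± 1.25 in ES-HLBs, 58.6 to 64.4% in the limb bud groups and 32.3% ± 1.67 in heart. The sum itself was 106 ± 5.19 CPM per kb in ES-FLBs and 62.4 ± 0.326 in ES-HLBs, close to the 62.2 ± 0.392 of early HLBs and the 66.4 ± 1.49 of early FLBs. Heart was second to ES-FLBs at 82.9 ± 7.17 CPM per kb. The sum was 53.4 ± 3.10 in E10.5 FLBs, 46.3 and 51.7 in the 2 libraries of E10.5 HLBs, 24.2 ± 0.923 in BA and 27.3 ± 0.907 in TB.

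**Figure D1:**
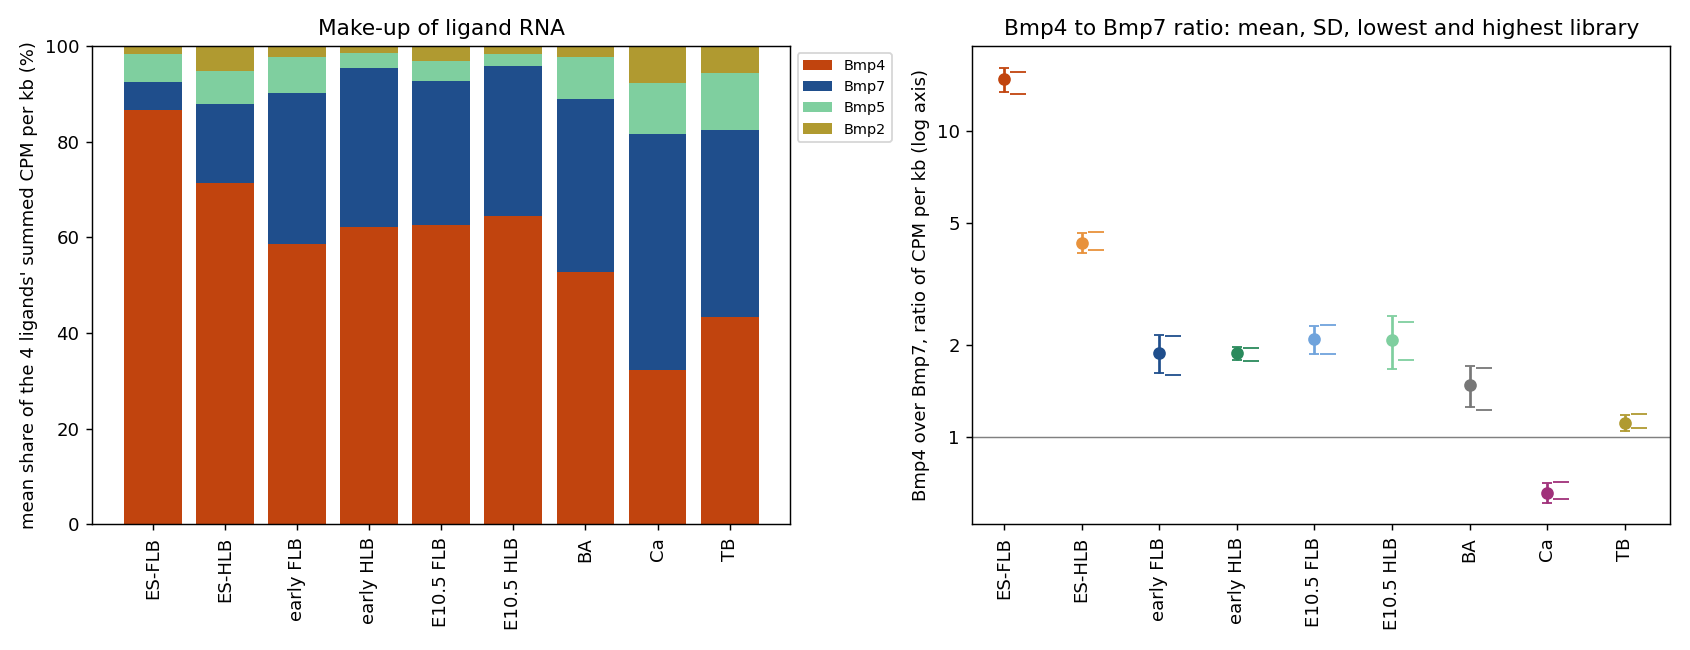
Left, mean share (%) of Bmp4, Bmp7, Bmp5 and Bmp2 in their summed CPM per kb of exon in each of the 9 groups (n = 3 libraries, 2 for E10.5 HLBs). Right, ratio of Bmp4 to Bmp7 per kb on a log axis, with the mean and SD as point and bar and the lowest and highest library as dashes beside them. ES-FLBs (14.7) and ES-HLBs (4.31) lie above all limb buds, and heart (0.658) lies below 1.

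Bmp2, the ligand closest in sequence to BMP4, was low in all limb buds. Its gene lies at chr2:133552159-133562896 on the plus strand. ES-HLBs had 11.0, 12.2 and 11.5 CPM, more than any limb bud, BA or TB library. ES-FLBs, at 6.33, 4.94 and 8.04 CPM, overlapped E10.5 FLBs (5.47, 6.30 and 6.62 CPM), TB (4.88, 7.59 and 4.37 CPM) and early FLBs (4.24, 4.04 and 7.49 CPM). Replicate 3 of the early FLBs was far above the other 2. Hindlimb buds were lower, at 3.26, 3.69 and 2.83 CPM early and 2.89 and 2.997 CPM at E10.5, BA lowest at 1.58 to 2.25 CPM and heart highest at 22.1 to 22.7 CPM.

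Bmp5, known for its part in skeletal and ear shape, was also highest in heart, at 38.3, 31.6 and 33.1 CPM. Its gene lies at chr9:75775365-75900316 on the plus strand. ES-FLBs (24.1, 22.7 and 23.9 CPM) overlapped early FLBs (18.2, 15.5 and 24.1 CPM), and early FLBs overlapped ES-HLBs (16.2, 16.8 and 16.0 CPM). The E10.5 FLBs were lower, at 7.53, 7.95 and 9.24 CPM, and so were the early HLBs at 4.89, 9.26 and 7.80 CPM, with E10.5 HLBs at 5.07 and 4.41 CPM. BA (7.67 to 8.86 CPM) overlapped the E10.5 FLBs and early HLBs, and TB had 11.0 to 13.8 CPM. The whole span of the Bmp5 gene, introns included, shares 1454 bases with Gm47723 on the same strand and 2468 bases with Gm26903 on the other.

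**Figure D2:**
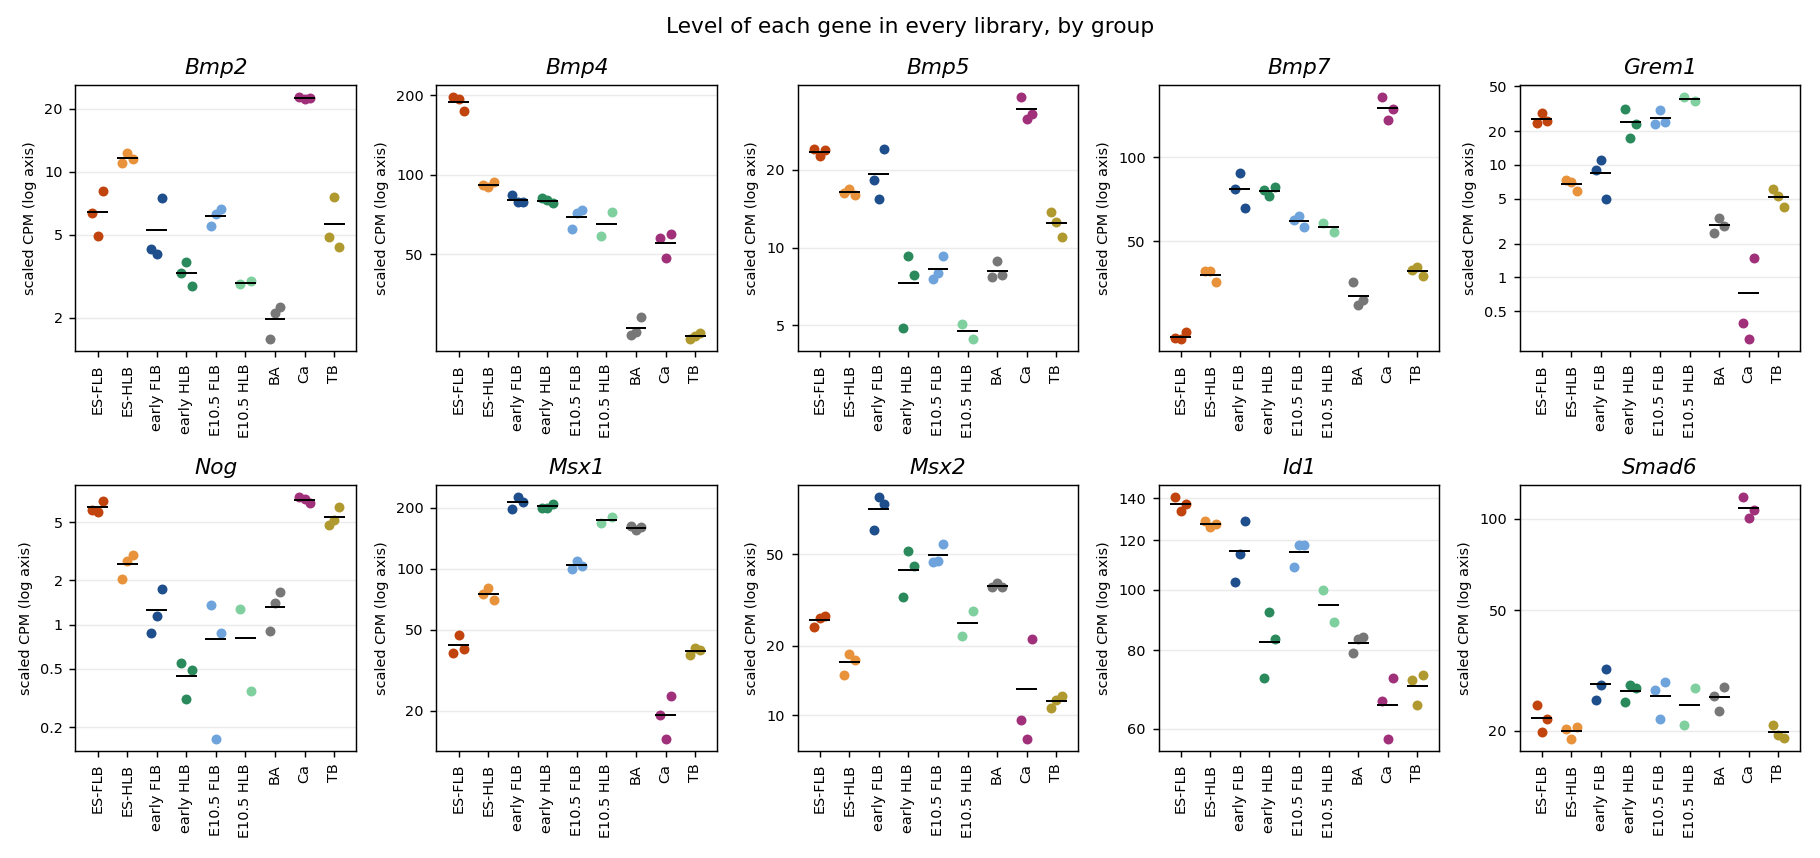
Scaled CPM (log axis) of the 10 genes in each library, 1 panel per gene, with the 9 groups on the horizontal axis. Points are libraries (3 per group, 2 for E10.5 HLBs) and the line is the group mean. Heart stands above the other groups for Bmp2, Bmp5, Bmp7 and Smad6 and below them for Grem1 and Msx1.

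Grem1, the gene of the limb mesenchyme antagonist Gremlin1, had the widest range of the 10 genes, with 53.1-fold between its highest and lowest group means. It lies at chr2:113748675-113758648 on the minus strand. In embryos it was higher in hindlimb than in forelimb buds: early FLBs had 9.05, 11.1 and 5.01 CPM and early HLBs 31.6, 17.3 and 22.9 CPM. At E10.5 the FLBs had 23.1, 31.0 and 24.2 CPM and the HLBs 40.2 and 36.9 CPM, with no overlap between limb types at either stage. In culture the order was turned, with 23.7, 28.7 and 24.7 CPM in ES-FLBs against 7.28, 7.12 and 5.87 CPM in ES-HLBs. TB had 4.25 to 6.14 CPM and BA 2.48 to 3.38 CPM. Heart libraries were at 0.391, 0.282 and 1.503 CPM, 1 of them under the worth of 3 reads. Per kb of exon, Grem1 was 0.298 times Bmp4 in E10.5 HLBs (0.254 and 0.342 in the 2 libraries), 0.068 ± 0.007 in ES-FLBs and 0.037 ± 0.005 in ES-HLBs.

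Promoters are shown for 4 of the genes because Msx1 and Msx2 fell together in ES-LBs, Smad6 is the feedback gene of the pathway, and Grem1 changed order between embryos and culture. They run from 250 bases before to 50 after the start in the RefSeq annotation of GRCm38.p6, which held promoters for 6 of the 10 genes. Both strands were searched for 3 motifs bound by BMP Smads in other systems: the palindrome GTCTAGAC, found in 0.213% of 32851 promoters of the same length, GGCGCC in 11.9%, and GGAGCC, which reads GGCTCC on the other strand, in 30.8%. Capitals mark matches. Smad6 held the palindrome starting 4 bases before the start and 2 matches to GGAGCC, Grem1 held 1 match to GGCGCC, Msx2 held 2 and Msx1 1 of GGAGCC or its complement. The start used for Smad6 lies inside the gene span given for it below, so the palindrome also falls inside that span. Bmp4 also had 1 such match and Bmp5 had none. A match describes letters only and no binding was measured.
Grem1 promoter, chr2:113758599-113758898, minus strand: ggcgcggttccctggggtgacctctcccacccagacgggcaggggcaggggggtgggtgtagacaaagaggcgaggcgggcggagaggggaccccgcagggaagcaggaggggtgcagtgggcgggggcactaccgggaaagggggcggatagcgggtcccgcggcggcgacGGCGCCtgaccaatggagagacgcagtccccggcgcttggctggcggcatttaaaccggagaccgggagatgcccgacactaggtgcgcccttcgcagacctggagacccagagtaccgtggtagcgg
Msx1 promoter, chr5:37824536-37824835, minus strand: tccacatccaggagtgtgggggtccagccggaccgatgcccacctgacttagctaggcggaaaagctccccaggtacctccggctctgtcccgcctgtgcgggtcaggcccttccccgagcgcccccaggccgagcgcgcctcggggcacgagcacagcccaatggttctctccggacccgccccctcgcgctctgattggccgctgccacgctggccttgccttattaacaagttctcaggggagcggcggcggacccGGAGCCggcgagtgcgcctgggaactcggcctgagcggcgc
Msx2 promoter, chr13:53472731-53473030, minus strand: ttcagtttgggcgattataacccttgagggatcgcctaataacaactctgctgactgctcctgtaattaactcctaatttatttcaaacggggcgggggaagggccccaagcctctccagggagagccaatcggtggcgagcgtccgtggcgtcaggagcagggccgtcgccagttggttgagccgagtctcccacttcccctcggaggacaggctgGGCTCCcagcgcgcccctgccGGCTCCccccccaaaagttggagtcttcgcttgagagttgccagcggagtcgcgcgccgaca
Smad6 promoter, chr9:64022010-64022309, minus strand: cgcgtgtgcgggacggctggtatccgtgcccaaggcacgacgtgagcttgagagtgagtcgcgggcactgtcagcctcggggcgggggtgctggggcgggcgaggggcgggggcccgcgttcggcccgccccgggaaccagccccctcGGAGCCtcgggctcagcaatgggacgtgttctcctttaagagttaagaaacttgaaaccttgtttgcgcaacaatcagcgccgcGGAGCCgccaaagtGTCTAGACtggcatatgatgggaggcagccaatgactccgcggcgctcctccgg

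Nog, the gene of the antagonist Noggin, was at low levels and so had the least precise values. It lies at chr11:89300638-89302559 on the minus strand. ES-FLBs had 6.08, 5.84 and 6.95 CPM and ES-HLBs 2.04, 2.71 and 2.99 CPM, all above every limb bud library. Early FLBs were at 0.869, 1.15 and 1.76 CPM and early HLBs at 0.543, 0.312 and 0.491 CPM. At E10.5 the FLBs had 1.37, 0.166 and 0.872 CPM and the HLBs 1.27 and 0.353 CPM, 1 library of each under the worth of 3 reads. Heart (6.69 to 7.43 CPM) and TB (4.76 to 6.32 CPM) were as high as ES-FLBs or close to it, with overlap of ES-FLBs in both, and BA had 0.903 to 1.66 CPM.

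Msx1, a homeobox gene of distal mesenchyme, and Id1 were the most abundant members in limb buds per kb of exon, with Msx1 ahead in early FLBs (109.7 against 99.3 CPM per kb), early HLBs (105 against 71.2) and E10.5 HLBs (89.9 against 81.4) and Id1 ahead in E10.5 FLBs (99.0 against 53.9). Msx1 lies at chr5:37820491-37824585 on the minus strand. Early FLBs had 197, 226 and 214 CPM and early HLBs 200.2, 199.6 and 209 CPM, with overlap. At E10.5 the limb types parted, with 99.9, 109.5 and 103.5 CPM in FLBs and 168 and 179 CPM in HLBs. BA lay between, at 156 to 162 CPM. ES-HLBs had 75.1, 80.2 and 70.2 CPM and ES-FLBs 38.4, 47.3 and 40.2 CPM, below every limb bud library, and ES-FLBs overlapped TB at 37.5 to 40.9 CPM. Heart was lowest at 14.5 to 23.6 CPM.

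Msx2, its close relative, was higher in forelimb than in hindlimb samples in embryos and in culture. It lies at chr13:53466881-53472780 on the minus strand. Early FLBs had 63.3, 88.6 and 82.4 CPM, early HLBs 32.6, 51.4 and 44.4 CPM, E10.5 FLBs 46.0, 46.9 and 55.1 CPM and E10.5 HLBs 22.1 and 28.4 CPM. Forelimb was above hindlimb at both stages without overlap. ES-FLBs, at 24.1, 26.4 and 26.9 CPM, overlapped E10.5 HLBs, and ES-HLBs had 14.9, 18.5 and 17.4 CPM. BA had 35.9 to 37.3 CPM and TB 10.8 to 12.1 CPM, and in heart replicate 3, at 21.4 CPM, was far above the 9.52 and 7.89 CPM of the other 2 libraries. Per kb of exon, Msx1 was 8.84 times Msx2 in E10.5 HLBs (8.02 and 9.67 in the 2 libraries), 2.70 ± 0.293 times in E10.5 FLBs, 5.66 ± 0.641 times in ES-HLBs and 2.06 ± 0.193 times in ES-FLBs.

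Id1, which codes for an inhibitor of bHLH factors and is an early target of BMP Smads, varied least, by 2.09-fold between group means. It lies at chr2:152736251-152737410 on the plus strand. ES-FLBs had 141, 134 and 137 CPM and ES-HLBs 129, 126 and 127 CPM, the highest groups. Early FLBs followed at 103, 114 and 129 CPM, where replicate 3 reached ES-HLB levels, and E10.5 FLBs at 109, 118 and 118 CPM. HLBs were lower, at 72.2, 92.1 and 83.4 CPM early and 100.04 and 88.9 CPM at E10.5. BA (79.3 to 84.2 CPM), TB (65.5 to 73.2 CPM) and heart (57.8 to 72.4 CPM) overlapped early HLBs or each other.

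Smad6, whose product blocks receptors and Smad1, is also known in vessels and heart valves. It lies at chr9:63953076-64022085 on the minus strand. Heart libraries had 118, 100.5 and 107 CPM, and the 8 other groups lay between 18.8 and 31.9 CPM. Early FLBs were at 25.4, 28.4 and 31.9 CPM, early HLBs at 24.9, 28.3 and 27.7 CPM, E10.5 FLBs at 27.2, 21.9 and 28.9 CPM, E10.5 HLBs at 21.0 and 27.7 CPM and BA at 23.3 to 27.9 CPM. These 5 groups overlapped one another. ES-FLBs (24.3, 19.9 and 21.9 CPM), ES-HLBs (20.3, 18.8 and 20.6 CPM) and TB (19.0 to 20.9 CPM) had lower means and overlapped one another too.

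The first comparison asked how far sorted ES-LB mesenchyme differed from limb buds of the same limb type in these genes. In each of the 4 comparisons, which share the ES-LB libraries between stages, Bmp4, Nog and Id1 were higher in ES-LBs, and Bmp7, Msx1 and Msx2 lower. Msx1 was 5.06-fold lower in ES-FLBs than in early FLBs and 2.70-fold lower in ES-HLBs than in early HLBs. Grem1 was higher in ES-FLBs than in early FLBs, and lower in ES-HLBs than in HLBs of either stage. The early bud libraries were deeper than those of ES-LBs, so depth and sample type cannot be told apart in the comparisons with early buds. Tests were made with limma on log2(CPM + 0.5), where a gene passed at a Benjamini-Hochberg adjusted p below 0.05 over all genes tested. Log2 differences of low genes such as Nog are understated by the added 0.5. A fit described below as without the variance trend used neither the mean-variance trend nor the robust variances of the main fit.

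Against early FLBs, 9 of 10 members passed in ES-FLBs, 5 higher and 4 lower, where 41.1% of 13113 genes were called higher and 41.0% lower. Of these, 6 members changed 2-fold or more, which 29.6% of all genes did. Bmp4 rose by 1.22 ± 0.05 on the log2 scale (SE, limma adjusted p = 4.1e-12), Nog by 1.98 ± 0.20 (9.25e-08) and Grem1 by 1.62 ± 0.28 (0.00209). Bmp7 fell by 1.72 ± 0.09 (1.03e-10), Msx1 fell by 2.33 ± 0.08 (7.83e-12) and Msx2 by 1.57 ± 0.11 (1.89e-07). Id1 rose by 0.26 and Smad6 fell by 0.36, the latter with an adjusted p of 0.189 on CPM as deposited. The rise of Bmp5 by 0.31 rested on each of 5 libraries, with adjusted p between 0.0868 and 0.194 when any of ES-FLB replicates 1 to 3 or early FLB replicates 1 and 2 was left out. It also failed with no filter on low genes (0.068), without the variance trend (0.106) and in a single model of all 26 libraries (0.0691). Bmp2 differed by 0.29 ± 0.23 (0.258), and passed only without replicate 3 of the early FLBs, at 0.55 (0.0116). The median absolute log2 difference was 1.40 over the members and 0.61 over all genes.

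Against early HLBs, all 10 members passed in ES-HLBs, 5 higher and 5 lower, with 39.6% and 38.9% of 13178 genes called. A change of 2-fold or more was seen in 6 members, against 25.5% of all genes. Bmp2 rose by 1.69 ± 0.15 (limma adjusted p = 7.86e-08), Bmp5 by 1.15 ± 0.18 (9.84e-05), Nog by 1.70 ± 0.22 (4.58e-06) and Id1 by 0.63 ± 0.07 (3.59e-06). The Bmp4 difference was small, 0.20 ± 0.05 (0.00356). Grem1 fell by 1.72 ± 0.19 (6.25e-06), Msx1 by 1.43 ± 0.06 (2.79e-11), Msx2 by 1.29 ± 0.16 (3.19e-05), Bmp7 by 0.99 ± 0.07 (5.2e-09) and Smad6 by 0.43 ± 0.09 (0.000481). The median absolute difference was 1.22 over the members and 0.55 over all genes.

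The E10.5 buds were compared with the same ES-LB libraries. In ES-FLBs against E10.5 FLBs, 7 of 10 members passed, 4 higher and 3 lower, where 35.4% and 36.3% of 13174 genes did, and 5 changed 2-fold or more, against 18.4% of genes. Bmp4 (1.44 ± 0.06), Bmp5 (1.47 ± 0.12) and Nog (2.50 ± 0.29) rose most, and Bmp7 fell by 1.35 ± 0.08 and Msx1 by 1.31 ± 0.07. Grem1 gave a difference of -0.01 ± 0.11 (limma adjusted p = 0.915), Bmp2 one of 0.04 ± 0.18 (0.839) and Smad6 one of -0.23 ± 0.11 (0.0627). Smad6 passed without replicate 1 of the ES-FLBs (0.0294) or replicate 2 of the E10.5 FLBs (0.0081).

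In ES-HLBs against E10.5 HLBs, all 10 members passed, 5 higher and 5 lower, with 37.0% and 34.8% of 13366 genes called, and 5 changed 2-fold or more, against 21.4%. Grem1 fell by 2.43 ± 0.14 (limma adjusted p = 1.02e-16), which only 4.26% of the genes tested exceeded in size, and Msx1 by 1.21 ± 0.07 (1.56e-17). Bmp2 rose by 1.81 ± 0.19, Bmp5 by 1.69 ± 0.16, Nog by 1.32 ± 0.31 and Bmp4 by 0.50 ± 0.08. Bmp7 fell by 0.56 ± 0.09 and Msx2 by 0.56 ± 0.13, and the Msx2 call was lost in a single model of all 26 libraries (0.083). Smad6 was at the threshold, -0.27 ± 0.12 (0.0491), and did not pass without any 1 of ES-HLB replicates 1 to 3 or E10.5 HLB replicate 3 (0.0602 to 0.654). It also failed on CPM as deposited (0.234), with median of ratios scaling (0.0639), a pseudocount of 0.1 (0.0563), no filter on low genes (0.0593), no variance trend (0.124) or replicate 2 of the E10.5 HLBs kept (0.0508). The median absolute differences at E10.5 were 1.11 and 0.88 over the members for ES-FLBs and ES-HLBs, and 0.40 and 0.47 over all genes. Bmp2, Bmp4, Bmp7, Msx1 and Msx2 are known to be transcribed in the apical ridge as well as in mesenchyme, and the ectoderm and endothelial sums given above were lower in the sorted ES-LBs than in the whole buds. The sum over 10 blood genes was also lower, at 5.85 to 171 CPM in ES-LBs and 2305 to 6801 CPM in limb buds, with all 8 blood genes tested lower in both comparisons with early buds and all 9 in both with E10.5 buds. The sum over 7 pluripotency genes was higher, at 19.9 to 110.1 CPM in ES-LBs and 3.44 to 6.81 CPM in limb buds, with 5 of 6 tested genes higher in ES-FLBs and 7 of 7 in ES-HLBs against either stage. Their part in these differences was not tested.

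**Figure D3:**
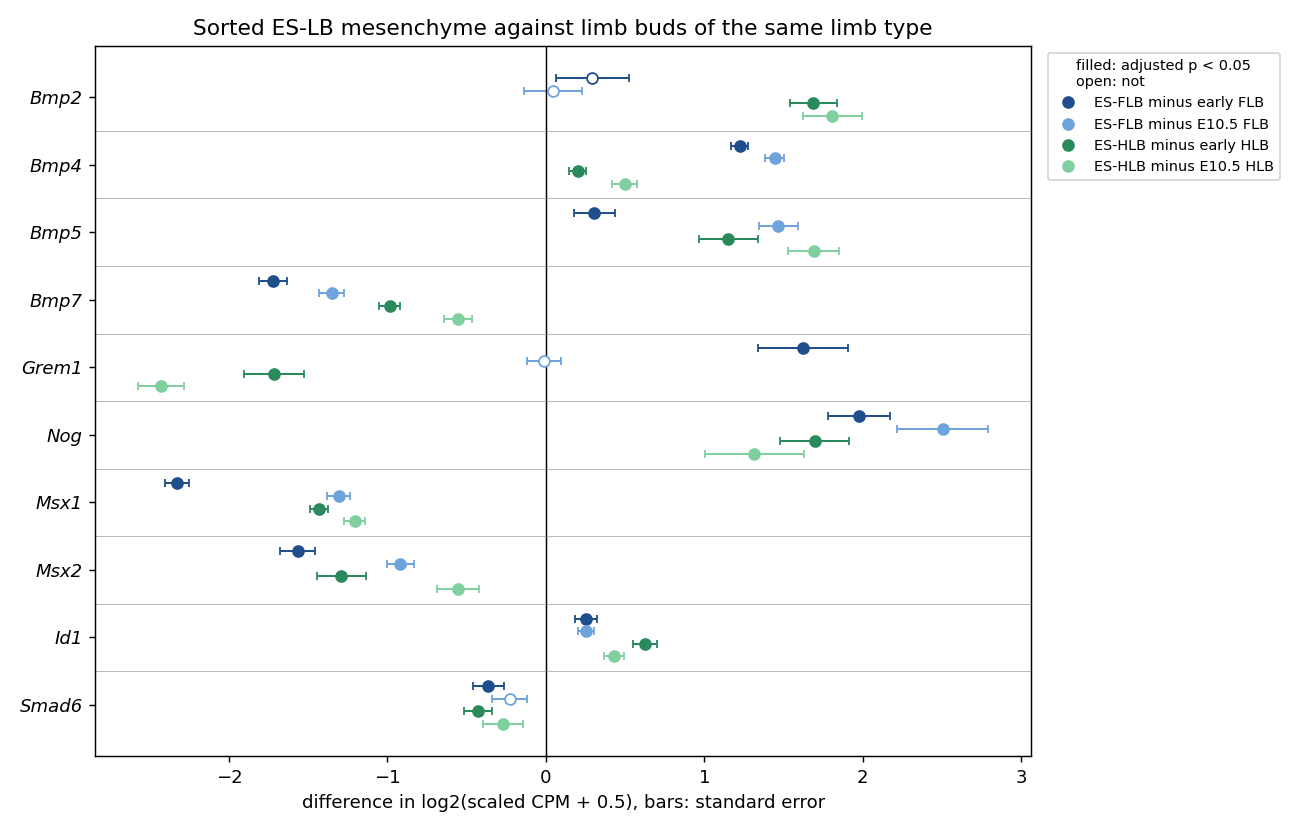
Difference in log2(scaled CPM + 0.5) between ES-LBs and limb buds of the same limb type (horizontal axis) for the 10 genes, with standard errors as bars and 4 comparisons per gene. Filled points passed at an adjusted p below 0.05 and open points did not. Bmp7, Msx1 and Msx2 lie left of 0 in all 4 comparisons, Bmp4, Bmp5, Nog and Id1 right of it, and Grem1 right of it for ES-FLBs against early FLBs, near it for ES-FLBs against E10.5 FLBs and left of it for ES-HLBs.

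The second comparison was of hindlimb with forelimb, in culture and in embryos. In culture, ES-HLBs had less Grem1, Nog, Bmp4, Msx2 and Bmp5 than ES-FLBs and more Msx1, Bmp2 and Bmp7. In embryos, Grem1 was higher in hindlimb buds and Msx2, Bmp5 and Id1 were lower. Msx1 passed as higher and Bmp2 as lower in hindlimb buds at E10.5 but not early. Bmp4 and Bmp7 gave log2 differences between -0.09 and -0.01 that did not pass.

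In ES-HLBs against ES-FLBs, 8 of 10 members passed, 3 higher and 5 lower, where 13.1% of 13132 genes were called higher and 12.0% lower. Grem1 fell by 1.85 ± 0.12 (limma adjusted p = 2.75e-13), and 1.03% of genes tested had a larger difference. Nog fell by 1.15 ± 0.19 (2.22e-05), Bmp4 by 1.03 ± 0.05 (3.08e-16), Msx2 by 0.60 ± 0.10 (3.29e-05) and Bmp5 by 0.51 ± 0.10 (0.000149). Msx1 rose by 0.84 ± 0.08 (2.48e-10), Bmp2 by 0.82 ± 0.16 (0.000121) and Bmp7 by 0.72 ± 0.08 (4.77e-08). Id1 gave -0.11 ± 0.05 (0.111) and Smad6 -0.14 ± 0.10 (0.355). The Msx2 call was lost in a single model of all 26 libraries (0.106). The median absolute difference was 0.77 over the members and 0.12 over all genes. Markers of other cells also differed between these groups: the sum over 18 ectoderm and ridge genes was 272 to 288 CPM in ES-HLBs and 147 to 201 CPM in ES-FLBs, that over 7 pluripotency genes 76.6 to 110.1 and 19.9 to 29.0 CPM, and that over 10 blood genes 90.8 to 171 and 5.85 to 8.70 CPM. Their part in the result was not tested.

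In early HLBs against early FLBs, 4 of 9 members tested passed, 1 higher and 3 lower, where 9.35% of 12503 genes were called higher and 11.0% lower. Nog was too low to be tested. Grem1 gave 1.48 ± 0.36 (limma adjusted p = 0.0431), Msx2 -0.87 ± 0.21 (0.0435), Bmp5 -1.36 ± 0.26 (0.0129) and Id1 -0.48 ± 0.11 (0.0197). Only the Bmp5 call held without each library in turn. Grem1 did not pass without early HLB replicate 1, 2 or 3 or early FLB replicate 1 (0.0508 to 0.123), Msx2 without early HLB replicate 1 or 3 or early FLB replicate 2 or 3 (0.0654 to 0.113), and Id1 without early HLB replicate 3 or early FLB replicate 2 (0.0619 and 0.0625). Members passed then numbered 2 without HLB replicate 1 or FLB replicate 2 and 1 without HLB replicate 3. Bmp2 gave -0.57 ± 0.21 (0.0863), and passed in a single model of all 26 libraries (0.0342). Of the others, Bmp4 gave -0.01 ± 0.05 (0.925), Bmp7 -0.01 ± 0.09 (0.949), Msx1 -0.06 ± 0.06 (0.478) and Smad6 -0.08 ± 0.09 (0.602). The sum over 9 cardiac muscle genes was 19.0 to 42.3 CPM in early FLBs and 4.64 to 8.69 CPM in early HLBs, and its part was not tested.

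In E10.5 HLBs against E10.5 FLBs, 6 of 10 members passed, 2 higher and 4 lower, with 12.0% of 12867 genes called higher and 12.0% lower. Msx1 rose by 0.74 ± 0.06 (limma adjusted p = 2.01e-15) and Grem1 by 0.56 ± 0.11 (7.89e-05). Msx2 fell by 0.96 ± 0.10 (8.79e-11), Bmp2 by 0.94 ± 0.24 (0.00186), Bmp5 by 0.74 ± 0.21 (0.00547) and Id1 by 0.28 ± 0.06 (0.000605). The Bmp5 and Id1 calls were lost without HLB replicate 3 (0.0509 and 0.0531), and those of Grem1 and Id1 without the variance trend (0.0896 and 0.116). The Grem1 call was also lost in a single model of all 26 libraries (0.24). Bmp4 gave -0.09 ± 0.08 (0.503), Bmp7 -0.07 ± 0.08 (0.561), Nog 0.04 ± 0.46 (0.964) and Smad6 -0.10 ± 0.12 (0.628). In the library left out, the values of Bmp4 (67.6 CPM), Bmp7 (56.2 CPM), Grem1 (39.0 CPM) and Msx2 (23.8 CPM) lay between those of the 2 libraries used. The median absolute difference was 0.42 over the members and 0.16 over all genes at E10.5, and 0.48 and 0.13 at the early stage.

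**Figure D4:**
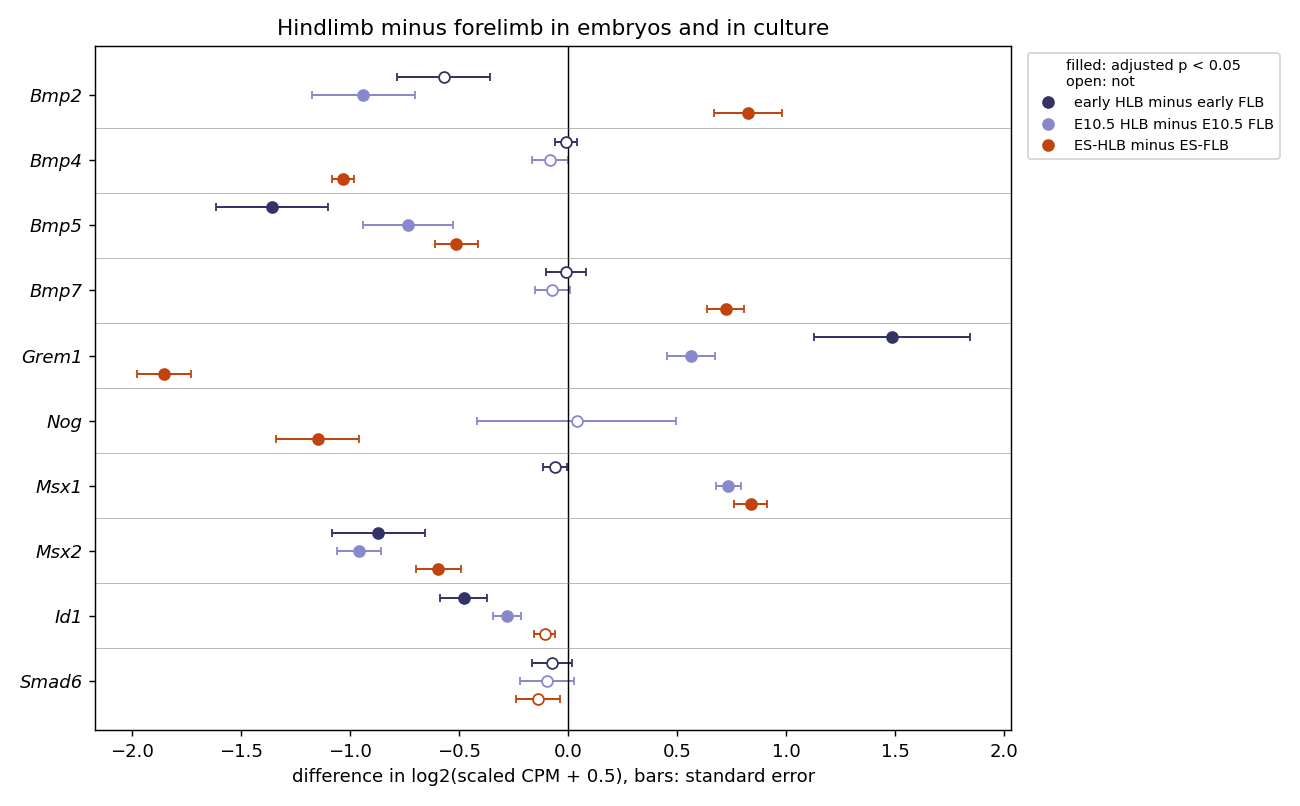
Hindlimb minus forelimb difference in log2(scaled CPM + 0.5) of each gene (horizontal axis) in early limb buds, E10.5 limb buds and ES-LBs, with standard errors as bars. Filled points passed at an adjusted p below 0.05, and Nog was not tested in early buds. Grem1 lies at 1.48 and 0.56 in embryos and at -1.85 in culture, and Bmp4 near 0 in embryos and at -1.03 in culture.

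The difference between these limb-type effects was itself tested as an interaction, of (ES-HLB minus ES-FLB) against (early HLB minus early FLB). E10.5 buds were not part of it, and in the early buds limb type and stage cannot be told apart. For Msx1 the difference in E10.5 buds was 0.74 ± 0.06, near the 0.84 ± 0.08 in culture. Of 10 members 7 passed, 5 with a positive and 2 with a negative interaction, where 12.8% and 9.96% of 13615 genes did. Grem1 gave -3.34 ± 0.39 (limma adjusted p = 0.000183), and 0.154% of genes tested had a larger value. Bmp4 gave -1.02 ± 0.075 (5.38e-09), Bmp2 1.39 ± 0.28 (0.00114), Msx1 0.90 ± 0.10 (2.62e-06) and Bmp7 0.73 ± 0.11 (8.26e-05). Bmp5 at 0.85 ± 0.27 (0.0353) and Id1 at 0.37 ± 0.11 (0.0274) were within reach of the threshold. The Bmp5 call was lost when any of the 6 ES-LB libraries or early FLB replicate 1 or 3 was left out (0.0546 to 0.0799), and the Id1 call without any ES-HLB library, ES-FLB replicate 2 or 3, or early FLB replicate 2 or 3 (0.0502 to 0.0686). Both were also lost without the variance trend (0.0632 and 0.0813). Nog (-0.28 ± 0.29, 0.55), Msx2 (0.27 ± 0.23, 0.456) and Smad6 (-0.06 ± 0.14, 0.784) did not pass. The median absolute interaction was 0.79 over the members and 0.19 over all genes.

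The third comparison was of stage within each limb type. Forelimb buds had less Msx1, Bmp5, Msx2, Bmp7 and Bmp4 at E10.5 than early and more Grem1. Hindlimb buds had lower Bmp7, Bmp4, Msx1 and Msx2. Early libraries were also the deeper ones, so depth and stage cannot be told apart. Markers of other cells moved with stage too. The sum over 18 ectoderm and ridge genes was 581 to 714 CPM in early and 400 to 416 CPM in E10.5 FLBs, with 12 of 16 tested genes lower and 3 higher, and 534 to 631 and 404 to 424 CPM in HLBs, with 11 of 18 lower and 1 higher. Sums over 7 neural crest genes were 15.2 to 18.5 CPM in early and 69.4 to 75.1 CPM in E10.5 FLBs, with 4 of 4 tested genes higher, and 21.6 to 29.3 and 37.6 to 44.6 CPM in HLBs, with 1 of 3 higher. Those over 6 muscle precursor genes were 10.1 to 21.0 and 45.2 to 50.9 CPM in FLBs, with 4 of 6 higher, and 9.11 to 19.9 and 20.1 to 23.9 CPM in HLBs, with 1 of 4 higher. Their part in the stage differences was not tested.

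In FLBs, 6 of 10 members passed, 1 higher and 5 lower at E10.5, with 30.2% of 12767 genes called higher and 34.6% lower. Grem1 rose by 1.64 ± 0.30 (limma adjusted p = 0.00465). Msx1 fell by 1.02 ± 0.06 (7.01e-11), Bmp5 by 1.16 ± 0.15 (3.54e-06), Msx2 by 0.65 ± 0.13 (0.00328), Bmp7 by 0.37 ± 0.09 (0.00214) and Bmp4 by 0.22 ± 0.07 (0.00685). The fall of Bmp4 was 0.05 (0.49) on CPM as deposited. Bmp2 gave 0.25 ± 0.20 (0.287), and passed without early FLB replicate 3 at 0.51 (0.0233). Id1 gave 0.00053 ± 0.07 (0.995), Nog -0.53 ± 0.35 (0.197) and Smad6 -0.14 ± 0.11 (0.288).

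In HLBs, 4 of 9 members tested passed, none higher and 4 lower, with 12.2% of 12683 genes called higher and 16.7% lower. Bmp7 fell by 0.43 ± 0.07 (limma adjusted p = 0.0012), and this call alone held without each library. Bmp4 (-0.30 ± 0.09, 0.025) and Msx1 (-0.22 ± 0.06, 0.0122) did not pass without E10.5 HLB replicate 1 (0.21 and 0.115) or early HLB replicate 3 (0.0546 and 0.0617). Msx2 (-0.74 ± 0.21, 0.0402) also did not pass without either of these (0.2 and 0.099) or without E10.5 HLB replicate 3 (0.0763). The Bmp4 call was also lost on CPM as deposited, at -0.24 (0.0744), and without the variance trend (0.108). Those of Msx1 and Msx2 were lost without the trend (0.0757 and 0.076) and in a single model of all 26 libraries (0.171 and 0.0513). Members passed then numbered 1 without E10.5 HLB replicate 1 and 1 without early HLB replicate 3. Grem1 gave 0.71 ± 0.24 (0.0731), and passed without early HLB replicate 1, at 0.93 (0.000189), or 2, at 0.51 (0.0167), with no filter on low genes (0.0406) and with E10.5 HLB replicate 2 kept (0.027). Bmp5 gave -0.54 ± 0.24 (0.115) and passed without early HLB replicate 1, at -0.78 (0.00706), or in the model of all 26 libraries (0.016), and Id1 gave 0.20 ± 0.10 (0.161) and passed without early HLB replicate 2, at 0.28 (0.0317).

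When the stage change in HLBs was tested against that in FLBs, 1 of 10 members passed, with a positive value, where 11.9% of 13244 genes had a positive and 10.7% a negative call. It was Msx1, at 0.80 ± 0.08 (limma adjusted p = 2.07e-06), since its level fell by more in FLBs. By the stages the study gives, early HLBs were nearer to E10.5 than early FLBs were. Limb type and length of the interval therefore cannot be told apart in this test. Bmp5 joined it without early HLB replicate 2, at 0.80 (0.0406). Grem1 gave -0.92 ± 0.46 (0.201). The median over the members was -0.04 and over all genes 0.00.

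The last comparisons set heart, BA and TB against the mean of E10.5 FLBs and HLBs, which all of them share as controls. Heart differed in every member, BA and TB had less Bmp4, Bmp7, Grem1 and Id1, and heart and TB had more Bmp5 and Nog.

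In heart all 10 members passed, 5 higher and 5 lower, with 39.5% of 13733 genes called higher and 40.3% lower. Nog rose by 2.65 ± 0.25, Bmp5 by 2.36 ± 0.14, Bmp2, a ligand of atrioventricular myocardium, by 2.27 ± 0.18, Smad6 by 2.096 ± 0.10 and Bmp7 by 1.37 ± 0.07 (limma adjusted p between 2.15e-19 and 3.11e-11). Grem1 fell by 4.84 ± 0.27 (6.22e-13), Msx1 by 2.82 ± 0.10 (3.84e-17), Msx2 by 1.54 ± 0.22 (4.99e-06), Id1 by 0.67 ± 0.07 (2.34e-09) and Bmp4 by 0.28 ± 0.07 (0.000668). The median absolute difference was 2.18 over the members and 0.55 over all genes. Heart libraries held 16706 to 20244 CPM over 9 cardiac muscle genes and 24344 to 35392 CPM over 10 blood genes, against at most 7.15 and 4062 CPM in E10.5 limb buds, and the sum over 12 endothelial genes was 1053 to 1125 CPM. Their part in each difference was not tested.

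In BA 6 of 10 members passed, 1 higher and 5 lower, with 17.6% of 13314 genes called higher and 16.9% lower. Grem1 fell by 3.25 ± 0.27 (limma adjusted p = 7.22e-09), Bmp4 by 1.33 ± 0.07 (7.89e-17), Bmp2 by 0.96 ± 0.18 (6.23e-05), Bmp7 by 0.84 ± 0.07 (3.07e-11) and Id1 by 0.34 ± 0.07 (0.000641). Bmp5 rose by 0.35 ± 0.14 (0.0497), which failed without any BA library, E10.5 FLB replicate 1 or 2, or either E10.5 HLB library (0.0568 to 0.177). It also failed with a pseudocount of 2 (0.0653), no filter on low genes (0.0665), no variance trend (0.0789) or the 3 compared groups alone (0.0683). Msx1 gave 0.24 ± 0.10 (0.0621), and passed on CPM as deposited, at 0.29 (0.0283), with a pseudocount of 2 (0.0467) and in the fit of the 3 compared groups alone (0.000203). Msx2 gave 0.05 ± 0.23 (0.888), Smad6 0.04 ± 0.10 (0.771) and Nog 0.56 ± 0.25 (0.0834). For Msx1 and Msx2 the BA libraries lay between E10.5 FLBs and HLBs, so a small difference from their mean does not mean likeness to either. Nog passed without E10.5 FLB replicate 1 (0.73, 0.0222) or E10.5 HLB replicate 1 (0.83, 0.0179). The sum over 9 branchial arch genes was 660.2 to 710.2 CPM in BA and 173 to 203 CPM in E10.5 limb buds, with 6 of 9 genes higher. That over 12 limb mesenchyme genes was 1453 to 1509 and 2024 to 2245 CPM, with 1 higher and 7 lower, and that over 7 neural crest genes 78.3 to 111 and 37.6 to 75.1 CPM, with 4 of 6 tested higher. Their part in each difference was not tested.

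In TB 9 of 10 members passed, 2 higher and 7 lower, with 24.5% of 13438 genes called higher and 24.1% lower. Nog rose by 2.28 ± 0.25 (limma adjusted p = 3.76e-09) and Bmp5 by 0.94 ± 0.14 (1.1e-06). Grem1 fell by 2.50 ± 0.27 (1.39e-07), Msx1 by 1.76 ± 0.10 (1.78e-12), Msx2 by 1.57 ± 0.23 (1.27e-05), Bmp4 by 1.44 ± 0.07 (6.49e-18), Id1 by 0.57 ± 0.07 (2e-07) and Bmp7 by 0.55 ± 0.07 (1.37e-07). The Smad6 fall of 0.33 ± 0.10 (0.00471) did not pass without E10.5 HLB replicate 3 (0.0583). Bmp2 gave 0.32 ± 0.18 (0.135). All 12 limb mesenchyme genes were lower in TB, with a sum of 425 to 476 CPM and a median log2 difference of -3.82, and all 10 tail bud genes were higher, with a sum of 447 to 505 CPM against 4.70 to 14.6 CPM in E10.5 limb buds. The sum over 6 muscle precursor genes was 113 to 131 CPM against 20.1 to 50.9 CPM, with 4 higher and 2 lower, and 6 of 9 blood genes tested were higher. Their part in each difference was not tested.

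The other genes of the pathway were taken from lists of 14 ligands, 16 antagonists, 10 receptors and co-receptors, 4 Smads, 8 inhibitory regulators and 17 target genes, which include the 10 members. Outside the members there were 56 such genes. In ES-FLBs against early FLBs 48 of them could be tested, of which 32 were higher and 10 lower, with a median log2 difference of 0.48, against 0.01 over all genes, of which 41.1% were higher and 41.0% lower. In ES-HLBs against early HLBs 23 of 47 were higher and 13 lower, against 39.6% and 38.9% of all genes. In ES-FLBs against E10.5 FLBs 26 of 50 were higher and 16 lower, against 35.4% and 36.3% of all genes. In ES-HLBs against E10.5 HLBs 22 of 49 were higher and 16 lower, against 37.0% and 34.8% of all genes. In ES-HLBs against ES-FLBs 5 of 47 were higher and 24 lower, against 13.1% and 12.0% of all genes, with a median of -0.22 against 0.00 over all genes. In the in vitro against in vivo limb-type difference 5 of 49 were positive and 14 negative, against 12.8% and 9.96% of all genes, so the positive share was near that over all genes.

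Of the antagonists, 13 could be tested in ES-FLBs against early FLBs, with 12 higher and 1 lower and a median of 1.98, against 41.1% and 41.0% of all genes. Against E10.5 FLBs 8 of 14 were higher and 5 lower, with a median of 0.60, where 35.4% and 36.3% of all genes were. Antagonists also rose with stage in FLBs, with 9 of 12 higher and 0 lower at E10.5, where 30.2% and 34.6% of all genes were. Sostdc1, which also acts on Wnt co-receptors, was at 37.3 ± 7.04 CPM in ES-FLBs and 1.93 ± 0.788 CPM in early FLBs, a rise of 3.99 ± 0.22. Chrd, which codes for Chordin, rose from 0.893 to 10.9 CPM, and Fst, the gene of the activin and BMP antagonist Follistatin, from 1.97 to 12.2 CPM (log2 differences of 3.05 and 2.35). In ES-HLBs 8 of 14 were higher and 3 lower against early HLBs, where 39.6% and 38.9% of all genes were. Against E10.5 HLBs 8 of 14 were higher and 4 lower, where 37.0% and 34.8% of all genes were. Fst was at 18.2 ± 2.27 CPM in ES-HLBs and 0.520 ± 0.070 CPM in early HLBs, and Nbl1 at 42.1 ± 3.58 and 6.32 ± 2.17 CPM. Sost, whose product Sclerostin also acts on Wnt co-receptors, went the other way, at 0.470 ± 0.114 CPM in ES-HLBs and 14.9 ± 0.718 CPM in early HLBs. Chrdl1 rose with stage in both limb types, from 1.84 to 19.3 CPM in FLBs and from 8.06 to 20.1 CPM in HLBs. Cer1, an antagonist of Nodal and BMP, was at 30.4 ± 3.93 CPM in TB and listed at 0 in the E10.5 limb buds.

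Among the ligands outside the members, Gdf6 was at 12.7 ± 1.02 CPM in ES-FLBs and 4.30 ± 0.753 CPM in E10.5 FLBs. Bmp10, a ligand of trabecular myocardium, was at 35.2 ± 4.97 CPM in heart and listed at 0 in the E10.5 limb buds. Of 10 receptors and co-receptors, 7 were higher and 2 lower in ES-FLBs against early FLBs, where 41.1% and 41.0% of all genes were. Against E10.5 FLBs 3 were higher and 3 lower in ES-FLBs, where 35.4% and 36.3% of all genes were. In E10.5 FLBs against early FLBs 7 were higher and 2 lower, where 30.2% and 34.6% of all genes were. Rgma, a co-receptor, was at 25.0 ± 2.24 CPM in early FLBs, 53.6 ± 4.36 CPM in E10.5 FLBs and 84.1 ± 1.34 CPM in ES-FLBs. Eng, the endothelial co-receptor Endoglin, fell from 30.3 ± 1.98 CPM in early FLBs to 5.47 ± 0.913 CPM in ES-FLBs. Bmpr1a, the main type I receptor of early limb mesenchyme, was within 185 to 239.6 CPM in ES-LBs and limb buds by group mean, a gene named here outside the rule for named genes after its values were seen. In heart Eng was at 189 ± 11.6 CPM, against 25.8 ± 1.45 CPM over the E10.5 limb buds. Of the 4 Smads, Smad9 was at 12.3 ± 1.20 CPM in ES-FLBs and 2.91 ± 1.19 CPM in ES-HLBs.

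Target genes moved in both directions. In ES-FLBs against early FLBs 7 of 17 were higher and 8 lower (median -0.26), and in ES-HLBs against early HLBs 7 were higher and 9 lower (median -0.43), members included. Over all genes 41.1% were higher and 41.0% lower in the first and 39.6% and 38.9% in the second, so the targets' shares in ES-FLBs were near those of all genes. Against E10.5 FLBs 10 of 17 were higher and 6 lower in ES-FLBs (median 0.34), where 35.4% and 36.3% of all genes were. Against E10.5 HLBs 8 were higher and 7 lower in ES-HLBs (median -0.05), where 37.0% and 34.8% of all genes were. The rises and falls that follow are against early buds. Tbx2, the gene of a T-box repressor, rose from 36.8 ± 4.01 to 416 ± 14.7 CPM in ES-FLBs and from 37.0 ± 1.85 to 299 ± 5.03 CPM in ES-HLBs. Id2 rose from 141 ± 8.44 to 295 ± 12.8 CPM in ES-FLBs and from 95.5 ± 7.55 to 221 ± 4.42 CPM in ES-HLBs, the same sign as Id1. Dlx3, a gene of surface ectoderm and the ridge, fell from 29.0 ± 2.01 to 0.788 ± 0.305 CPM and from 21.2 ± 3.28 to 1.05 ± 0.393 CPM. In TB 2 of 17 targets were higher and 12 lower than in E10.5 limb buds (median -0.44), against 24.5% and 24.1% of all genes, with Tbx2 at 17.8 ± 3.04 against 67.7 ± 21.0 CPM. In BA Dlx5 was at 78.1 ± 5.89 CPM against 5.85 ± 1.67 CPM, and Dlx3 at 73.4 ± 6.79 against 9.30 ± 0.957 CPM.

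**Figure D5:**
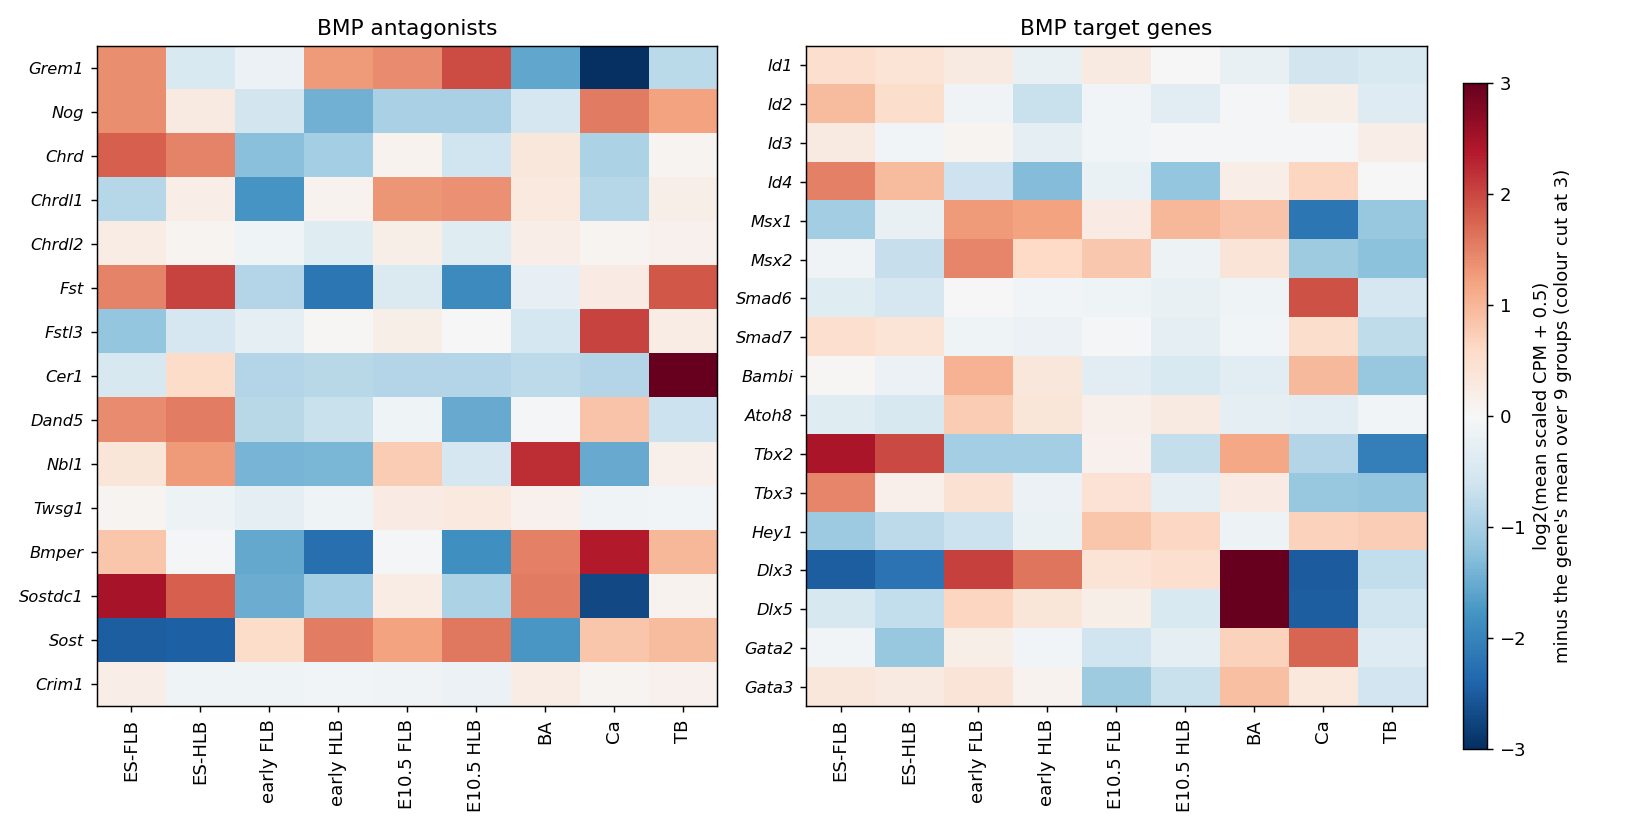
Colour gives log2(mean scaled CPM + 0.5) of each gene minus its own mean over the 9 groups, for 15 BMP antagonists (left) and 17 BMP target genes (right), with colours cut at 3 in either direction. Sostdc1, Chrd, Fst and Nog are red in ES-FLBs, Sost is blue in both ES-LBs, and among targets Tbx2 and Id2 are red and Dlx3 and Msx1 blue in ES-FLBs.

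Genes whose group means followed each member most closely were listed by Pearson r of mean log2(CPM + 0.5) over the 9 groups, among 11190 genes, as a description only, since the points share libraries and 1 group such as heart can set them. Bmp2 was followed most closely by Fam122b (r = 0.985), Bmp4 by Lysmd2 (0.945), Bmp5 by St3gal1 (0.954) and Bmp7 by Plp2 (0.963). For the antagonists these were Zfp808 for Grem1 (0.942) and 2510009E07Rik for Nog (0.954). For the targets they were Dtwd2 for Msx1 (0.978), Obfc1 for Msx2 (0.933) and Tshz3 for Id1 (0.977), and for Smad6 Pomgnt1 (0.989). Within the 10 genes, the closest pairs were Bmp5 with Nog (r = 0.805) and Msx1 with Msx2 (0.802), and the most opposed was Nog with Msx1 (-0.919).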

How the data were processed

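RNA-seq of 27 libraries was deposited by the authors as 1 table of CPM (counts scaled to library size) per gene, of which 26 columns were used. Per the labels and the submitters' processing notes, reads were checked with FastQC 0.11.5, mapped to mm10 with HISAT2 2.0.4 and processed with Cufflinks 2.1.1, Cuffdiff and edgeR 3.16.2. Whether counting used strand is not given in the sources used here.

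CPM were rescaled by a trimmed mean of log ratios (30% and 5% trims, factors 0.904 to 1.07), and log2(CPM + 0.5) was fitted with limma 3.58.1 in R 4.3.3, with a mean-variance trend and robust variances. Genes needed 1 CPM in 3 of the libraries compared, or in 2 where E10.5 HLBs were among them. Limb comparisons used their own groups, and BA, Ca and TB a fit of all 26 libraries. Adjusted p-values are Benjamini-Hochberg values over the genes tested. Count models were not run, since the values are CPM. Reads per library were estimated from the commonest low CPM value of each library, taken as 1 read. The floor was the worth of 3 reads, and both cover counting error only. On simulated data, 177 to 199 of 200 changed genes were recovered in 5 comparisons, with 5 to 19 false calls. The simulation gave every gene the same fixed dispersion, so these figures need not hold for genes that varied more between libraries. Other tools were Python 3.11.15, numpy 2.4.6, pandas 2.3.3 and matplotlib 3.10.9.

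The members and lists were chosen with earlier results of these data known. All members are named. Other pathway genes are named if they passed with a change of 2-fold or more and reached 10 CPM in the higher group, at most 5 per list and comparison, largest change first. For each member, 3 genes of like pattern were listed. Alternatives were another scaling, pseudocount, filter or fit, a replicate block and leaving out each library. Values of 1 listed antagonist are not reported here.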

Additional observations from a re-analysis of the deposited data

Results flagged for a closer look

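The hindlimb minus forelimb difference in culture and that in early limb buds differed by the interaction test in 7 of 10 genes. Of all 13615 genes tested, 12.8% had a positive and 9.96% a negative call. In those early buds limb type and stage cannot be told apart. At E10.5 the Msx1 difference was 0.74, against 0.84 in culture. The interaction on the log2 scale was 1.39 for Bmp2, -1.02 for Bmp4, 0.85 for Bmp5, 0.73 for Bmp7, -3.34 for Grem1, 0.90 for Msx1 and 0.37 for Id1. The Bmp5 and Id1 calls were lost in 9 and 8 of 21 alternatives, among them leaving out any ES-HLB library. The change from early to E10.5 buds differed between hindlimb and forelimb in Msx1, by 0.80. The study's stages make this interval shorter in HLBs, so its length and limb type cannot be told apart.

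The library left out of all comparisons, E10.5 HLB replicate 2, held signal for 7 of the genes above its worth of 3 reads, 0.537 CPM. Its levels were 3.04 CPM for Bmp2, 67.6 CPM for Bmp4, 56.2 CPM for Bmp7, 39.0 CPM for Grem1, 0.894 CPM for Nog, 23.8 CPM for Msx2 and 92.3 CPM for Id1.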

How the results depend on the processing

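The 138 tests of the 10 genes were recomputed under each alternative, giving 2264 values. Of these 2120 kept the direction and the side of the threshold, 82 no longer passed, 21 came to pass and 41 changed sign, none of the last in a test that passed. Of the 97 tests that passed, 78 did so in every alternative run. The edgeR test on counts was not run, since the values are CPM.

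On CPM as deposited, signs changed for Grem1 in ES-FLBs against E10.5 FLBs (0.041), Bmp4 (0.039) and Bmp7 (0.037) in early HLBs against early FLBs, and Smad6 between FLB stages (0.028). With median of ratios scaling Grem1 gave 0.00026 in the first of these, and with a pseudocount of 0.1 the Nog limb-type interaction was 0.015. Without the variance trend and robust variances, 788 genes were called in E10.5 HLBs against E10.5 FLBs, against 3097. Between HLB stages 2306 were then called, against 3659, with 1 member in place of 4. The cause was not tested.

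Leaving out 1 library gave 1 to 3 members and 1376 to 2278 genes called in early HLBs against early FLBs (main values 4 and 2542, lowest without early FLB replicate 1 for all genes). It gave 1 to 6 members and 1695 to 4378 genes between HLB stages (4 and 3659, lowest for all genes without E10.5 HLB replicate 3), and 1 to 2 members and 1980 to 3016 genes for the stage interaction (1 and 2995, lowest without E10.5 HLB replicate 1). Log2 differences that changed sign ranged from -0.12 to 0.21 for Bmp2 and -0.094 to 0.11 for Grem1 in ES-FLBs against E10.5 FLBs. In early HLBs against early FLBs they were -0.026 to 0.019 for Bmp4, -0.12 to 0.089 for Bmp7 and -0.16 to 0.0071 for Smad6. In E10.5 HLBs against E10.5 FLBs they were -0.24 to 0.065 for Bmp4, -0.38 to 0.56 for Nog and -0.29 to 0.098 for Smad6. Between stages they were -0.078 to 0.084 for Id1 in FLBs and -0.35 to 0.038 for Smad6 in HLBs. The limb-type interaction of Smad6 was -0.15 to 0.016. Stage interactions were -0.23 to 0.074 for Bmp4, -0.16 to 0.043 for Bmp7, -0.27 to 0.089 for Msx2 and -0.22 to 0.17 for Smad6. In BA they were -0.038 to 0.14 for Msx2 and -0.056 to 0.14 for Smad6. Where E10.5 HLBs were left with 1 library, it was assumed to vary like the other groups.

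Replicate numbers did not pair the samples, with correlations of deviations of -0.09 to 0.12 over 24 pairs. With the replicate block, 131 of the 138 tests kept their call, 3 no longer passed, 3 came to pass and Nog in E10.5 HLBs against E10.5 FLBs turned to -0.38. The calls lost were Grem1 in early HLBs against early FLBs (0.0782), Smad6 in ES-HLBs against E10.5 HLBs (0.118) and Bmp5 in BA (0.0592), and those gained were Smad6 in ES-FLBs against E10.5 FLBs (0.0464) and Grem1 (0.000644) and Id1 (0.00917) between HLB stages, all limma adjusted p. Depth limits Nog in E10.5 FLBs and HLBs and Grem1 in heart most, with 1 library in each under the worth of 3 reads.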

Other observations

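Among the other genes of the pathway, Bmper, which codes for a secreted BMP-binding protein, was at 23.6 ± 1.59 CPM in heart and 12.8 ± 2.70 CPM in BA, against 2.68 ± 1.80 CPM over the E10.5 limb buds (log2 differences of 3.33 ± 0.18 and 2.46 ± 0.18). Nbl1 was at 81.3 ± 5.94 CPM in BA and 5.63 ± 1.21 CPM in heart, against 22.4 ± 9.62 CPM over the E10.5 limb buds. Those buds differed by limb type, with means of 29.3 CPM in FLBs and 12.0 CPM in HLBs. Hey1, a target shared with Notch, was at 13.8 ± 2.39 CPM in ES-FLBs and 53.3 ± 1.28 CPM in E10.5 FLBs, and at 16.9 ± 1.37 CPM in ES-HLBs and 45.6 ± 2.59 CPM in E10.5 HLBs. Tbx3 was at 61.7 ± 6.33 CPM in ES-HLBs and 154 ± 6.06 CPM in ES-FLBs, a log2 difference of -1.32 ± 0.06. Bambi, the gene of a decoy receptor, fell from 124 ± 6.62 CPM in early FLBs to 47.5 ± 2.87 CPM in E10.5 FLBs and was at 117 ± 5.59 CPM in heart.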
